A study of Homo sapiens with 8 samples.

Results

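The sites described here were 258 places inside introns where transcription was recorded as starting in senescent IMR90 cells, a human lung fibroblast line, with no other listed start within 10 kb. They came from 2 deposited lists of 150-base sites, 849 stronger in senescent than in proliferating cells and 400 stronger in proliferating than in senescent cells, 1249 in all. A site of the senescent list was taken when its midpoint lay inside a gene of GENCODE release 44 on hg19, over 1 kb from every annotated transcript start, outside every exon and over 10 kb from the midpoint of every other site of the list. Of the 849 senescent sites, 704 were intronic by these terms, 258 of them isolated and 446 clustered. The clustered sites fell into 174 clusters. The same terms gave 105 isolated and 183 clustered intronic sites in the proliferating list.

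The series holds PRO-cap, which maps the 5′ ends of capped nascent RNA, and PRO-seq, which maps engaged RNA polymerase. Cells were grown in 3% oxygen, and senescence was reached by replicative exhaustion, with the senescent cells held for 2 weeks in the dish. The proliferating PRO-cap group was 1 sample at population doubling 23 and 2 samples, A and B, at doubling 26. The senescent PRO-cap group was 1 sample at doubling 76 and 2 samples, A and B, at doubling 67. PRO-seq had 1 proliferating sample at doubling 20 and 1 senescent sample at doubling 76, whose values were not analysed here. The lists were deposited in the same form for the whole series and for the first PRO-cap samples, and no source used here says how replicates entered them. A site therefore has 1 value for each state, with no spread between samples, and the tests below compare sites within the lists, not cell cultures.

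Active enhancers and promoters both start short capped RNAs, and most starts fall on a purine preceded by a pyrimidine, the initiator. Introns hold many enhancers, where such RNAs usually arise on either strand. AP-1, made of FOS and JUN family proteins, binds many fibroblast enhancers and is known as a factor of the enhancers of senescent fibroblasts. Starts inside gene bodies that match no annotated promoter are also known as cryptic starts, and are described in ageing and senescent cells.

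The sequences of the isolated sites with the highest folds in the authors' deposited table are shown because they carried the most reads among sites without any read in proliferating cells. All are the reference hg19 sequence over the whole 150-base site. Where the middle of the site had a C followed by an A on one strand, with the A on the midpoint base, the site is written 5′ to 3′ on that strand and the pair is in capitals. Otherwise it is written on the plus strand with the midpoint base in capitals.
RUNX3, chr1:25237621-25237770, plus strand: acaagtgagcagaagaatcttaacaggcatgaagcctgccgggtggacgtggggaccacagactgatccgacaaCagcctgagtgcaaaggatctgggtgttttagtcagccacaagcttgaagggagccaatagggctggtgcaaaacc
ARHGAP26, chr5:142388990-142389139, plus strand: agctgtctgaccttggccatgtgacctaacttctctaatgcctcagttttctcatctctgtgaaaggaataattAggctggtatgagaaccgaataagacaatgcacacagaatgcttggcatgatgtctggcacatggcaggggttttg
IL1RL2, chr2:102848198-102848347, plus strand: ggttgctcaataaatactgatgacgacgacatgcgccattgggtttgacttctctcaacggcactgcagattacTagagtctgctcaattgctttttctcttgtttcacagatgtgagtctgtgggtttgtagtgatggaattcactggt
MARCHF4, chr2:217163683-217163832, plus strand: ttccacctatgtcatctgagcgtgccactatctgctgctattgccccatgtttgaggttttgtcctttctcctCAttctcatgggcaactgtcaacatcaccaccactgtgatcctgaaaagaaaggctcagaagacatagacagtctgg
ETS1, chr11:128371970-128372119, minus strand: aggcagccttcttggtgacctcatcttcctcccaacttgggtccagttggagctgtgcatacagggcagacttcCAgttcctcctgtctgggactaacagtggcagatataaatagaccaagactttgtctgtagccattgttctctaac

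The next 5 sites were taken from the 8 isolated sites with an AP-1 motif that had the most senescent reads. They are shown because the place of the motif relative to the start recurs below. Capitals mark the AP-1 motif, TGACTCA on either strand, and the central CA pair. Of the other 3, the DPYSL2 site was not printed, and those of ASAP2 and CUX1 had their motif in the 200 bases searched but outside the 150-base site.
FBXL13, chr7:102512837-102512986, minus strand: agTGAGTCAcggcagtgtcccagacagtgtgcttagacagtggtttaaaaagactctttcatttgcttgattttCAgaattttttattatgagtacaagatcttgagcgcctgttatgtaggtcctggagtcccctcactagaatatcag
NUAK1, chr12:106476114-106476263, plus strand: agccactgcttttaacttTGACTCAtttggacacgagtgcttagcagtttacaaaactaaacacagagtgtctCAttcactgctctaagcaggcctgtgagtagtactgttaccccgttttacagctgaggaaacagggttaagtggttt
CAMTA1, chr1:7462251-7462400, plus strand: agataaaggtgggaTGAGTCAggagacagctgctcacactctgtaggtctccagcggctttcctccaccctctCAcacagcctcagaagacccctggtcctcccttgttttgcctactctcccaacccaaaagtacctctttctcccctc
LINC01182, chr4:13922086-13922235, minus strand: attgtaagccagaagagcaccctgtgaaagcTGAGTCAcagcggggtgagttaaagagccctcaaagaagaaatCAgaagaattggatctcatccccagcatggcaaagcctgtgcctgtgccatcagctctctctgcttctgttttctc
AFAP1L2, chr10:116066518-116066667, plus strand: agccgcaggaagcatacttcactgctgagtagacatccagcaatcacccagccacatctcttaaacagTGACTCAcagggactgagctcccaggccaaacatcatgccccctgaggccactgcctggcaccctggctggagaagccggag

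In FBXL13, NUAK1, CAMTA1 and LINC01182 the motif stood upstream of the start, as read on the start's strand. In AFAP1L2 the motif ended on the start itself, its last 2 bases being the CA pair.

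The host genes were mostly long and protein-coding. The 258 sites lay in 235 genes. A coding host was found for 235 sites, a long noncoding RNA for 22 and a pseudogene for 1. The median host was 238 kb long over sites, with quartiles of 108 and 468 kb and a range of 13.6 to 1369 kb. Among 20090 protein-coding genes, 213 held an isolated site, 1.06%. Among the 3659 coding genes over 100 kb, 162 did, 4.43%. These shares are per gene and were not scaled by intron length. The density over chromosomes ran from 0.489 sites per 10 Mb of intron on X to 2.60 on chromosome 5, with 1.73 over all.

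Within the host, the sites were far from its 5′ end and mostly past its middle. The median distance from the 5′ end of the host gene was 141 kb, with quartiles of 62.7 and 354 kb. The nearest annotated start of any transcript was a median of 10.5 kb away, with quartiles of 5.48 and 24.8 kb, and 61 sites had a start within 5 kb. The nearest exon was a median of 3.47 kb away, and 49 sites had one within 1 kb. The first intron held 16 sites and the last intron 27. The sites split sharply at the gene's middle. In steps of 10% of gene length, the 5 steps of the 5′ side held 2, 7, 5, 5 and 12 sites, and the 5 steps of the 3′ side held 47, 52, 45, 52 and 31. Thus 227 of 258 sites, 88.0%, lay past the middle. On a grid of intronic positions of the same host genes that met the same distance terms, 48.9% lay past it.

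Most sites before the middle of their gene were past the middle of some annotated transcript, of any gene and on either strand. Of the 31 sites before the middle of the gene, 28 were past the middle of at least 1 annotated transcript over the site. In all, 254 of 258 sites, 98.4%, were past the middle of at least 1 transcript, against 70.8% of the grid. The clusters and the isolated proliferating sites were also late in their genes, with 90.8% of the 174 clusters and 88.6% of the 105 isolated proliferating sites past the middle of their gene. No source used here says whether the lists were limited by place in the gene, so the place of a site cannot be told apart from how the lists were made.

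**Figure D1:**
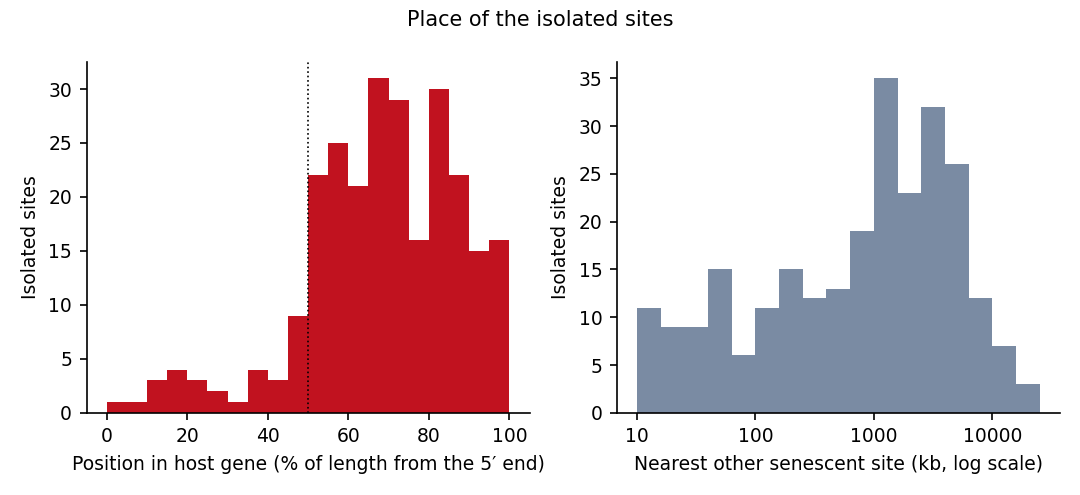
Left, number of isolated senescent intronic sites by position in the host gene in percent of its length from the 5′ end, with a dotted line at the middle; right, number by distance to the nearest other senescent site in kb on a log axis. The left panel steps up at the middle, past which 227 of the 258 sites lie, and the right panel starts at 11.4 kb because the sites were chosen to have no neighbour within 10 kb.

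Most sites had no neighbour over much longer distances than the 10 kb used to choose them. The nearest other senescent site was a median of 1163 kb away, with a range of 11.4 to 20017 kb. It was over 1 Mb away for 138 sites and within 100 kb for 50. The members just inside the limit were in HECW2, 11.445 kb from its neighbour with 24 reads, and in IGFBP7, 11.482 kb with 9 reads. Just outside it was a pair in DDAH1, 9.915 kb apart with 10 and 20 reads. No isolated senescent site had a site of the proliferating list within 10 kb, and 5 had one within 100 kb. The closest were in SYT1, 16.9 kb away, NRP2, 23.3 kb, and RAD51B, 23.9 kb. Of the 446 clustered senescent sites, 2 had a proliferating-list site within 10 kb and 8 within 100 kb. The lack of such neighbours was thus not particular to the isolated sites.

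Most hosts held a single isolated site. This was so for 218 of the 235 genes, while 13 held 2, 3 held 3 and 1 held 5. RAD51B, a gene of homologous recombination, held the 5, spread over 454 kb of its introns. Their senescent reads from the 5′ end on were 12, 48, 13, 17 and 14, and only the site with 48 had a read in proliferating cells, 1. PRKCE, the epsilon isoform of protein kinase C, held 3 sites within 95.1 kb with 17, 13 and 468 senescent reads. The last of these had 4 proliferating reads, and its 468 was the highest count of all 258 sites. RORA, a nuclear receptor, held 3 sites with 52, 110 and 32 senescent reads against 1, 8 and 0 proliferating reads. CDH13, a cadherin anchored by a lipid and not by a transmembrane helix, held 3 with 20, 11 and 9 senescent reads against 1, 0 and 0. Sites of 1 gene thus differed widely in PRKCE and little in CDH13.

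Of the genes with 2 sites, ARHGAP26, a GTPase-activating protein, had 150 and 142 senescent reads at sites 168 kb apart, with 0 and 6 in proliferating cells. ANTXR1, an anthrax toxin receptor that binds collagen, had 15 and 240 against 0 and 3. CAMTA1, a calmodulin-binding transcription activator, had 158 and 88 against 6 and 3. MIR100HG, the noncoding host transcript of miR-100, had 112 and 13 against 4 and 1. STARD13, also a GTPase-activating protein, had 73 and 16 against 4 and 1, and SYNPO2, an actin-binding protein, 31 and 52 against 0 and 0. In ARHGAP26 both sites were strong, whereas ANTXR1 and MIR100HG each paired a strong site with a weak one.

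Some hosts also held other listed sites. In 29 of the 235 there was a clustered intronic senescent site as well, and in 13 a site of the proliferating list. These 13 were ATXN1, BCAS3, CACNA1C, CAMTA1, FRMD4A, GPC6, HIVEP3, KLHL29, MARCHF1, NRP2, PALLD, RAD51B and SYT1. In 5 hosts the proliferating site was itself isolated and intronic. A single gene body could thus hold starts listed for each state at different places.

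The deposited value of a site was the authors' fold, senescent over proliferating. In the authors' deposited table the folds of the 258 sites ran from 10.3 to 6104 with a median of 329. Every fold of the list was matched, within 1e-06, by whole reads of each state scaled by a constant and with 1 added to both sides. The constant was 32.8 per senescent read and 39.4 per proliferating read, so the highest folds mean many senescent reads over none. The reads were therefore used in place of the fold. Total depth is unknown. The ratio of the constants, 1.20, was used to scale the counts. Reads without molecular identifiers are not independent molecules, so the intervals below cover counting error only.

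The isolated sites were thin in reads. Senescent reads ran from 2 to 468 with a median of 18 and quartiles of 12 and 41.75. Under 10 reads were found at 27 sites and over 100 at 23. No proliferating read was found at 165 sites, 64.0% (exact binomial 95% interval 57.8 to 69.8%). One read was found at 40 sites, 2 at 18, 3 at 9, and 4 to 12 at the other 26. The folds of these sites began at 10.3, and no source used here gives a cut-off. If a high fold was needed for the list, low counts in proliferating cells come with it. These counts are therefore only a description. The bounds from a floor take the senescent counts as exact and leave out their counting error. Against a floor of 3 reads, the 165 sites without a proliferating read were at least 3.61-fold higher in senescent cells at the median. The bound reached 10-fold at 15 of them and 2-fold at 160. At the 93 sites with a proliferating read the scaled ratio had a median of 19.2 and ran from 10.4 to 97.5. The lower bound of its interval was above 5 at 52 of these and above 2 at 84.

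**Figure D2:**
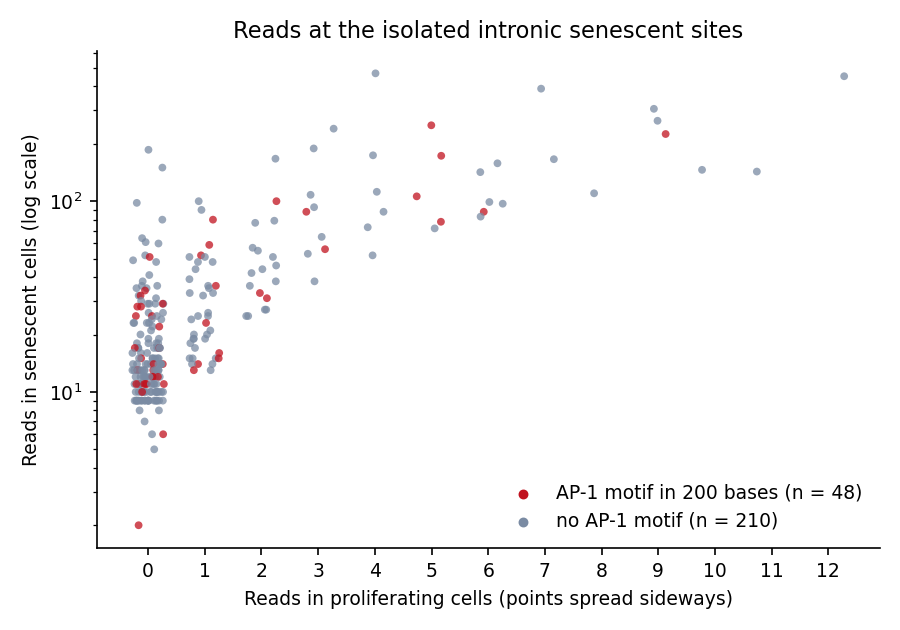
Senescent reads on a log axis against proliferating reads for each of the 258 isolated sites, with points spread sideways so that equal counts can be seen and red marking sites with an AP-1 motif in 200 bases. The column at 0 proliferating reads holds 165 sites, most under 30 senescent reads, and red points lie at all levels.

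Among the 10 sites of highest fold, genes of transcription control and of the cytoskeleton stood beside genes of other kinds. None of the 10 had a proliferating read. The scaled ratio was at most 97.5 at sites with such a read, so ranking by fold fixed this. RUNX3, a Runt-family transcription factor, had 186 senescent reads, at least 51.7-fold higher, at a site 82.2% along the gene. ARHGAP26 had 150, at least 41.7-fold higher. IL1RL2, the receptor for interleukin 36, had 98, at least 27.2-fold higher. MARCHF4, a membrane-bound ubiquitin ligase, had 80 in its first intron, at least 22.2-fold higher. ETS1, founding member of the ETS transcription factors, had 64 in its seventh intron, at least 17.8-fold higher. These 5 are the first sequences printed above. The next were BCAS3 with 61 reads, DOCK1, an exchange factor of Rac, with 60, SYNPO2 with 52, GALNT2, which starts O-linked glycans, with 51, and the noncoding gene ENSG00000258231 with 49. Of these 10, GALNT2 alone had an AP-1 motif.

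The AP-1 sites with the most reads had lower folds, because each also had proliferating reads. DPYSL2, which binds tubulin and guides axon growth, had 250 senescent and 5 proliferating reads, a scaled ratio of 41.7 (exact 95% interval 17.6 to 129). FBXL13, an F-box protein, had 225 and 9, a ratio of 20.8 (10.8 to 46.2). ASAP2, a GTPase-activating protein of Arf, had 173 and 5, and CUX1, a homeodomain factor, 106 and 5. NUAK1, a kinase related to AMPK, had 100 and 2, a ratio of 41.7 (11.2 to 349). CAMTA1 had 88 and 3, and LINC01182 had 88 and 6. AFAP1L2, an adaptor of actin filaments and Src, had 80 and 1, a ratio of 66.7 (11.6 to 2666). The intervals overlap, so these 8 could not be put in order by ratio at this depth.

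At the other end, the lowest folds in the authors' deposited table were 10.3 in PKD1L1, a polycystin family gene, 10.3 in LINC01495 and 10.5 in EFL1, a GTPase of ribosome maturation. Their senescent reads were 25, 25 and 38 against 2, 2 and 3. The interval of the ratio in PKD1L1 ran from 2.60 to 90.8. Low fold therefore did not mark the sites with fewest reads.

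The 12 gene lists, 455 genes in all, were chosen with results of these data known, so their counts describe and carry no test. Together 32 of the 455 held an isolated site, 7.03%, beside 1.06% of all coding genes and 4.43% of those over 100 kb. The 455 include shorter and longer genes, so neither of these shares is matched to them by gene length. Adhesion and guidance receptors held most: 8 of 60 genes (13.3%), and 51 of the 60 were over 100 kb. All 8 with a site were over 100 kb. They were ANTXR1, CDH13, GPC6, ITGA11, ITGB5, NRP2, PTPRK and SEMA5A. SEMA5A, a semaphorin, had 25 senescent reads, NRP2, a semaphorin and VEGF co-receptor, 12, and GPC6, a glypican, 11. ITGB5, an integrin beta chain, and PTPRK, a receptor phosphatase, had 10 each, and ITGA11, a collagen-binding integrin, 9. Proliferating reads were 0 at each of these 6 sites. Among isolated sites, none were found at 95.05% of those with 1 to 14 senescent reads and 68.1% of those with 15 to 29. ANTXR1 and CDH13, given above, each had a site with proliferating reads, 240 over 3 and 20 over 1.

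Ion channel and synaptic genes held 5 of 41 (12.2%), and 39 of the 41 were over 100 kb. The 5 were CACNA1C, CACNA2D1, NALF1, SYT1 and TRPC6. TRPC6, a calcium-permeable cation channel, had 48 senescent reads over 0. CACNA1C, the pore subunit of a voltage-gated calcium channel, had 72 over 5. Its site was 2.41 kb from the 5′ end of its 727 kb gene, the shortest such distance of all 258. NALF1, a factor of the sodium leak channel, had 28 and 16 over 0, CACNA2D1, an auxiliary calcium channel subunit, 22 over 0, and SYT1, a calcium sensor of vesicle release, 13 over 0. Actin and focal adhesion genes held 5 of 50 (10%), and 36 of the 50 were over 100 kb. DOCK1 and ARHGAP26 are given above. PALLD, an actin crosslinker, had 53 over 3, ARHGAP24, a Rac GTPase-activating protein, 18 over 0, and LPP, a protein of focal adhesions, 12 over 0.

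Extracellular matrix genes held 4 of 54 (7.41%), and 23 of the 54 were over 100 kb. ADAM12, a membrane metalloprotease, had 77 senescent reads over 2. ADAMTS12, a secreted metalloprotease, had sites with 17 over 0 and 15 over 1. COL4A1, a basement membrane collagen chain, had 10 over 0, and COL8A1, a short-chain collagen, 9 over 0. Chromatin regulators held 4 of 45 (8.89%), and 31 of the 45 were over 100 kb. EHMT1, a histone H3 lysine methyltransferase, had 146 over 10. KDM4C, a histone demethylase, had 18 over 1, HDAC9, a histone deacetylase, 9 over 0, and CHD9, a chromodomain helicase, 8 over 0.

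Of 41 secreted factors of senescence, 1 of them over 100 kb, IGFBP7, a binding protein of insulin-like growth factors, was the 1 with a site (2.44%), with 9 reads over 0. Among the 32 AP-1, C/EBP, NF-kB and stress factors, 6 of them over 100 kb, BACH1, a heme-responsive repressor, had a site with 174 over 4. Of 37 fibroblast transcription factors, 28 of them over 100 kb, there were 2, RUNX3 and ETS1 (5.41%). Of 26 cell cycle and replication genes, 5 of them over 100 kb, RAD51B was the 1 (3.85%). The 22 genes of TGF-beta signalling, the 19 of cell cycle arrest and p53, and the 28 markers of other cell types held none. In those lists 9, 3 and 6 genes were over 100 kb.

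The midpoint of a site proved to be a marked base. At 133 of the 258 isolated sites, 51.6% (exact 95% interval 45.3 to 57.8%), a CA pair on one strand had its A on the midpoint base, on the plus strand at 68 and on the minus strand at 65. At offsets of 5 to 60 bases on each side the mean share was 16.5%, with a range of 9.30 to 26.7%. With any pyrimidine followed by a purine the count was 221, 85.7%, against 44.6% elsewhere. This is the initiator pattern. At 1 base to the left and right the CA share was 12.02 and 10.1%, and that of any pyrimidine and purine pair 55.0 and 51.2%. The pair on the midpoint limits or shares the bases of those next to it. Clustered senescent sites had the CA pair at 50.2% of 446 and isolated proliferating sites at 51.4% of 105. Neither share differed detectably from that of the isolated sites. By Fisher's exact test, two-sided, the odds ratios were 1.05 (p = 0.75, 95% interval 0.77 to 1.45) and 1.00 (p = 1, interval 0.62 to 1.62). The first took every clustered site. Sites of a cluster are not independent, so its interval may be too narrow.

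**Figure D3:**
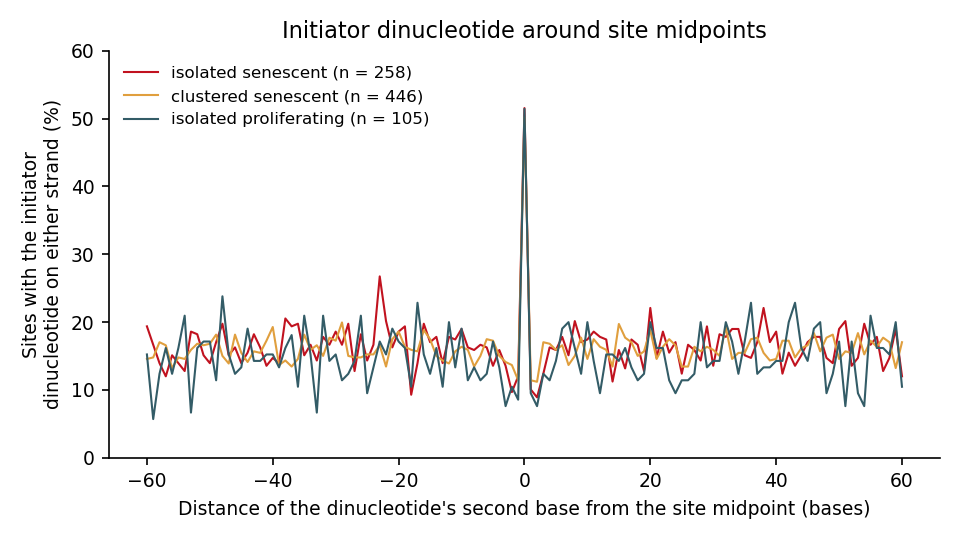
Percent of sites with the initiator dinucleotide on either strand, by distance in bases of its second base from the site midpoint, for isolated senescent, clustered senescent and isolated proliferating sites. All 3 lines peak at the midpoint, at 51.6, 50.2 and 51.4%, over means of 16.5, 16.0 and 15.0% elsewhere.

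All deposited sites carried a plus sign for strand, whatever the strand of the gene, so the strand of a start was read from its CA pair. The bases around the 133 starts so oriented extended the initiator. The base before the pair was T at 62, 46.6%. The base after it was G at 57, 42.9%, and the next was T at 59 and A at 56, together leaving 18 with C or G. A sense start, on the strand of the host gene, was read at 69 sites and an antisense start at 64. The sense share of 51.9% had an interval of 43.1 to 60.6%, so the starts did not follow the strand of the host detectably. By the looser pyrimidine and purine pair, 118 were sense and 103 antisense. At other offsets the CA pair was found at a mean of 16.5% of sites and the looser pair at 44.6%. Some strands may therefore be misread, which would draw the sense share towards an even split. The interval does not cover this. Sense and antisense sites differed in none of 8 measures past the threshold. The lowest unadjusted p was for GC content, with medians of 47.0 and 43.5% (Fisher's exact test above against below the median, p = 0.037, adjusted 0.30).

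AP-1 was the motif whose share stood the most percentage points above that of the introns around it. The letters TGACTCA, on either strand, were in the 200 bases centred on 48 of 258 isolated sites, 18.6% (14.05 to 23.9%). They were in 3.11% of all 326956 windows of 200 bases in the introns of the host genes and 3.04% of windows in all introns. In windows moved to either side of the sites, some of which leave the intron, the share was 8.14% at 200 bases to the left and 6.98% to the right. At 1 kb or more away it averaged 3.29%, with a range of 1.55 to 5.43%. The AP-1 matches were thus gathered near the start. The other groups shared this. The share was 18.8% at clustered senescent sites, over a mean of 4.43% at 1 kb or more away. At isolated proliferating sites it was 11.4% over 3.02%.

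Those matches lay before the start. Over 100 bases on either side of the 133 oriented starts, 22 matches lay upstream, 4 spanned the start and 2 lay downstream. The upstream ones had a median centre of 57.5 bases before the start and ran from 88 to 20 bases before it, with 20 of the 22 between 40 and 90. The 4 on the start were all at the same register, where the CA pair is the end of the motif itself, and so follow from the letters used to orient. The 88 sites with a looser initiator but no CA pair did not share those letters. There 14 matches lay upstream, 2 downstream and none on the start, with a median upstream centre of 60 bases. In the clustered senescent sites with a CA pair 26 matches lay upstream, 7 downstream and 2 on the start. Every clustered site was taken for this, so a motif near several of them can enter more than once. In the isolated proliferating sites 3 lay upstream and 1 downstream with a CA pair, and 5 and 0 with the looser pair only. The upstream place was thus not particular to senescent sites. The pattern was found while the data were examined and is given without a test.

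**Figure D4:**
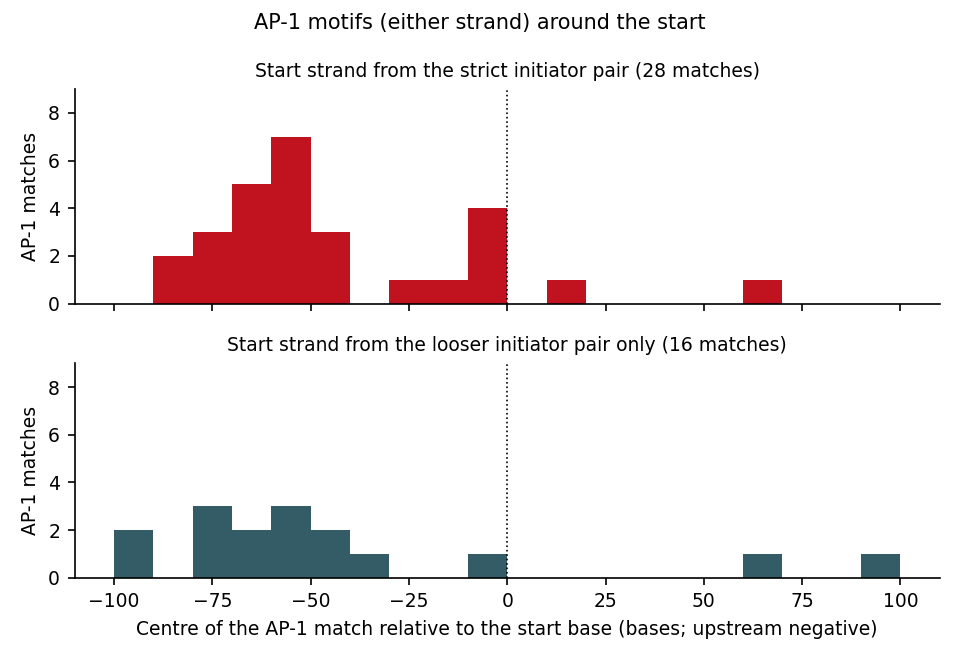
Number of AP-1 matches in isolated senescent sites by the distance in bases of their centre from the start, in steps of 10 bases with upstream negative, for sites oriented by the strict initiator pair (top, 28 matches) and by the looser pair only (bottom, 16 matches). Matches gather upstream of the dotted start line in both panels, at medians of 57.5 and 60 bases.

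Other motifs were also counted on each side of the start. At the oriented starts the motif of GATA factors, written AGATAAG, had 5 matches upstream and 1 downstream, the E-box (CACGTG) 3 and 0, and CRE (TGACGTCA) 1 and 0. FOX had 11 matches upstream and 2 downstream, RUNX 8 and 4 with 2 on the start, TATA 13 and 8, TEAD 7 and 4 with 2 on the start, and ETS 11 and 10. C/EBP had 7 and 6. More matches lay downstream for ZEB/SNAI, 1 and 5, AP-2, 3 and 5 with 1 on the start, and STAT, 0 and 1. With the looser pair only, GATA was 3 and 0, the E-box 3 and 1, FOX 3 and 4 and ETS 4 and 9, so the FOX counts did not repeat there. In the 200-base windows, ETS (CCGGAAG or CAGGAAG) was in 12.8% of isolated sites against 5.78% of the host introns, RUNX (TGTGGTT or TGCGGTT) in 8.53% against 4.27%, TEAD (ACATTCC or GCATTCC) in 8.91% against 5.30% and FOX (TGTTTAC or TATTTAC) in 9.69% against 7.49%. The TATA box (TATAAA or TATATA) was in 13.2% against 26.4%, and ZEB/SNAI (CAGGTG) in 7.36% against 13.8%. C/EBP (TTGCNNAA) was in 10.9% against 11.1%, NF-kB (GGNNTTTCC) in 3.88% against 2.62%, and the p53 half-site in 8.14% against 5.16%. Both strands were searched, and no 2 of these motifs were made to exclude each other. Composition moves with these shares. The median GC content was 44.8% at the sites and 39.5% in the windows, and its part in the motif shares was not tested.

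The isolated sites had little CpG. The observed to expected CpG ratio had a median of 0.160, beside 0.168 in the host introns. At 53 sites there was no CpG in 200 bases, and none of the 258 combined a ratio of 0.6 or more with a GC content of 50% or more. GC content ran from 24.5 to 64.0%.

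Sites with and without AP-1 were compared in 8 measures and none passed the threshold of an adjusted p of 0.05. Senescent reads had medians of 22.5 and 18, and no proliferating read was found at 58.3% of the 48 and 65.2% of the 210. The TATA box was found in 3 of the 48 and 31 of the 210 (odds ratio 0.386, interval 0.0723 to 1.33, Fisher's exact test, p = 0.16, adjusted 0.87). Sites with no proliferating read against the rest differed in 1 of 8 measures, senescent reads, with medians of 13 and 51. If the list needed a high fold, sites with few senescent reads could hold few or no proliferating reads. Whether the difference comes from this was not tested.

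Isolated sites had fewer senescent reads than clusters. Each of the 174 clusters was represented by its middle site. The nearest other senescent site to these middle sites was a median of 0.224 kb away. The lower quartile was 0.135 kb, which is less than the width of a site. Sites that close overlap and may count the same reads. How far such overlap enters the difference in reads was not tested. Senescent reads had a median of 18 at the isolated sites and 44.5 at the clusters, and 97 of 258 against 117 of 174 lay above the combined median of 26 (odds ratio 0.294, interval 0.192 to 0.448, Fisher's exact test, two-sided, p adjusted over 9 measures 1.5e-08). No proliferating read was found at 64.0% of isolated sites and 43.1% of clusters (odds ratio 2.34, interval 1.55 to 3.54, adjusted p 9.7e-05). This second difference depended on which site stood for a cluster. Where 2 sites were equally near the middle the lower coordinate was used. With the higher one the odds ratio was 1.41 and the adjusted p 0.40. It was also not detectable among sites of like depth. With 1 to 14 senescent reads, no proliferating read was found at 95.05% of isolated sites and 93.5% of clusters. With 15 to 29 the shares were 68.1 and 59.4%, with 30 to 59 they were 34.9 and 35.7%, and from 60 on 15.6 and 17.4% (adjusted p 1 in all 4 classes).

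In sequence and place, isolated sites and clusters were not told apart. AP-1 was in 18.6 and 19.0% (odds ratio 0.977, interval 0.582 to 1.65), the TATA box in 13.2 and 16.1% (0.792, 0.445 to 1.42), and the median GC content was 44.8 and 45.0%. CpG ratios had medians of 0.160 and 0.197, positions in the gene 69.8 and 71.3%, host lengths 238 and 244 kb, and distances to an exon 3.47 and 4.05 kb. The lowest adjusted p of these 7 measures was 0.73. In 150 and 400 bases in place of 200, the lower CpG ratio of isolated sites passed the threshold, with odds ratios of 0.582 and 0.605 (Fisher's exact test, adjusted p 0.024 and 0.042). None of the 18 motifs passed. ZEB/SNAI had the lowest unadjusted p, with 7.36% against 13.8% (odds ratio 0.498, interval 0.248 to 0.984, Fisher's exact test, p = 0.033, adjusted 0.60).

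Against the 105 isolated intronic sites of the proliferating list, none of 7 measures passed, and CpG came closest. The CpG ratio had a median of 0.160 in the senescent and 0.217 in the proliferating sites, with 116 of 258 against 64 of 105 above the combined median (odds ratio 0.524, interval 0.320 to 0.852, Fisher's exact test, p = 0.0076, adjusted 0.053). The CpG difference passed the threshold in 3 alternatives: over 5 kb from starts (adjusted p 0.013), no read of the other state (0.033) and autosomes (0.035). It was smaller in 400 bases (odds ratio 0.780, adjusted p 0.42) and at 50 kb isolation (0.577, 0.20). AP-1 was in 18.6 and 11.4% (1.77, 0.875 to 3.83, adjusted p 0.21). The TATA box was in 13.2 and 21.0% (0.574, 0.306 to 1.09, adjusted 0.18). Host genes had medians of 238 and 176 kb (1.66, 1.02 to 2.70, Fisher's exact test, p = 0.037, adjusted 0.13). GC content, place in the gene and distance to an exon had adjusted p from 0.50 to 0.91. The intervals for AP-1 and TATA reach from no difference to odds ratios of 3.83 and 0.306, so these numbers of sites leave room for sizeable differences. None of the 18 motifs passed here either. By Fisher's exact test the lowest unadjusted p were for NF-kB, 3.88% against 9.52% (p = 0.042), and ZEB/SNAI, 7.36% against 1.90% (p = 0.048), each with an adjusted p of 0.28.

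**Figure D5:**
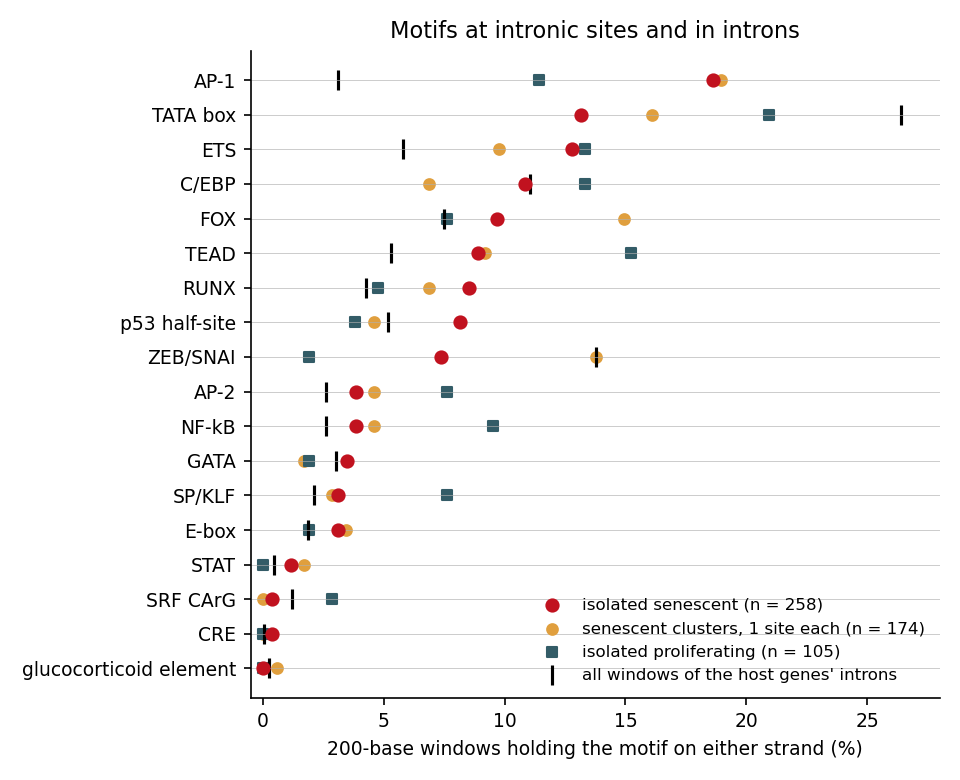
Percent of 200-base windows holding each of 18 motifs on either strand, for isolated senescent sites, senescent clusters (1 site each), isolated proliferating sites and all windows of the host genes' introns. AP-1 stands furthest right of its intron mark, at 18.6% of isolated senescent sites over 3.11%, and the TATA box lies left of it, at 13.2% under 26.4%.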

How the data were processed

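PRO-cap measured capped nascent 5′ ends in 3 proliferating and 3 senescent samples. The deposited lists give coordinates and the authors' fold, a linear ratio between states. The submitters' processing notes name HOMER, cutadapt 2.10, BWA 0.7.10, SAMtools 1.1 and bedtools 2.27.1-65, and the builds hg19, GRCm38 and mm10, with no role. The calling, selection and normalisation of sites were not given in the sources used here.

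GENCODE release 44 on hg19 gave the annotation, the host being the coding, then the longest, gene. Reads were recovered from folds (pseudocount 1, tolerance 1e-06), a step tested on simulated data. Groups of sites were compared with Fisher's exact test, two-sided, values being split at the combined median, and Benjamini-Hochberg adjustment at 0.05, using Python 3.11.15, scipy 1.17.1 and pysam 0.24.0. Sites of 1 gene are not independent. Depth is unknown. Genes named were the hosts of the 10 highest folds, the 10 with most sites, the gene-list members with a site, the 8 AP-1 sites with most reads and the 3 lowest folds; a few others were named after their values were seen. One gene of the lists is not reported here. The members and lists were chosen with earlier results of these data known. Alternatives changed isolation, start distance, gene type, fold, window, chromosomes and cluster site.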

Additional observations from a re-analysis of the deposited data

How the results depend on the processing

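Of 161 recomputed odds ratios, 145 kept direction and call. The number of sites ran from 165 to 273, and no motif passed in 22 repeats of the motif tests. The lower senescent reads of isolated sites against clusters held in every alternative tried, with odds ratios from 0.262 to 0.388. The share without a proliferating read lost its call, at 1.41, with the higher-coordinate site of each tied cluster, an alternative chosen after seeing the data. The lower CpG ratio against proliferating sites passed the threshold over 5 kb from starts (0.438), with no read of the other state (0.430) and on autosomes (0.509). It was smaller in 400 bases (0.780, adjusted p 0.42) and at 50 kb isolation (0.577, adjusted p 0.20). Against clusters it passed in 150 bases (0.582) and 400 bases (0.605). The cause was not tested. AP-1 against clusters turned direction without a call at 20 kb (1.22), 50 kb (1.18), 150 bases (1.099), at least 10 reads (1.05, chosen after seeing the data) and the other tie rule (1.30). GC against clusters did so with coding hosts (1.03), folds of at least 50 (1.101) and at least 10 reads (1.09), and position against proliferating sites at 50 kb (1.12) and at least 10 reads (1.06). The lowest adjusted p of these reversals was 0.57. Requiring no read of the other state left 165 sites. No paired analysis was possible because each site has a single fold and no sample's own value, and for the same reason no replicate could be left out. Low read numbers limit the ratios of single sites, and repeats were not analysed.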
